A study of Mus musculus with 4 samples.

Results

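The Ifitm family of interferon-induced transmembrane protein genes was examined in mouse hematopoietic stem and progenitor cells (HSPCs). Its members here were the gene rows named Ifitm1, Ifitm2, Ifitm3 and Ifitm6, 4 of 32272 genes in the deposited matrix, and the chromatin peaks within 20 kb of their intervals in the feature list, which span the transcription starts, 24 of 174339 peaks. The family was picked with measured values of these data in view, the difference of Ifitm1 between the 2 libraries among them. The levels and ratios below are therefore descriptions, and no test was made on them.

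Lin-cKit+ HSPCs were sorted by flow cytometry from the bone marrow of 8-week-old male C57BL/6 mice, and the nuclei were profiled by single-cell multiomics sequencing, which reads out, for each nucleus, both its RNA as unique molecular identifiers (UMIs) and its open chromatin as transposase cuts (ATAC). The Lig mice carried silk ligatures on their molars, a model of periodontitis, and the Ctrl mice remained unligated, both until day 14. The labels gave 4 groups of 1 sample, the RNA and the ATAC library of Ctrl and of Lig, without replicates, and bone marrow of several mice was pooled for each sample, so that individual mice cannot be told apart. In the deposited matrix, nuclei are told apart only by a barcode ending, 1 or 2, which the labels do not connect with Ctrl or Lig. The endings are called library 1 and library 2, neither was placed in a group, and whether their differences relate to ligature is unknown.

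IFITM proteins are small membrane proteins that hinder the fusion of viral envelopes with the membranes of the cell. Their genes are classic targets of type I and type II interferons, whose receptors act through Janus kinases, and at the genes through the DNA elements ISRE and GAS. Some members are also known to be expressed in stem cells without interferon, as a standing antiviral defence. The genes lie close together on mouse chromosome 7.

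Ifitm2 (ENSMUSG00000060591) spans chr7:140954837-140955987 on the minus strand (GRCm38), Ifitm1 (ENSMUSG00000025491) chr7:140967221-140969825 on the plus strand, Ifitm3 (ENSMUSG00000025492) chr7:141009586-141010770 on the minus strand and Ifitm6 (ENSMUSG00000059108) chr7:141015699-141017924 on the minus strand. The gene Gm45717 overlaps Ifitm2, and the members resemble each other in sequence, so reads that fit more than 1 of these genes make their counts uncertain. The promoters are shown because interferon acts on this family through such elements. They are the RefSeq windows (GRCm38.p6) from 250 bases before to 50 bases after the start of the RefSeq gene, written 5′ to 3′ along the gene, with capitals for matches to the ISRE core TTCNNTTTC or to the GAS letters TTCNNNGAA, each searched on both strands. The RefSeq starts lie 855 bases inside the outermost start given above for Ifitm1 and 1032 bases inside that of Ifitm6, near inner starts of other transcripts, and 26 bases inside for Ifitm2 and Ifitm3.
Ifitm1 promoter, chr7:140967826-140968125, plus strand: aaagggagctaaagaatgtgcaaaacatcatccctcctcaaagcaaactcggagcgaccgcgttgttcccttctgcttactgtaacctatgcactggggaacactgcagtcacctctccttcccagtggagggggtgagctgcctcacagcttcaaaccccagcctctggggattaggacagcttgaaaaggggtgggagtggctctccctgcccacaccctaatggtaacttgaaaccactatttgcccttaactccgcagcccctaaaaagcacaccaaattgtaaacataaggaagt
Ifitm2 promoter, chr7:140955912-140956211, minus strand: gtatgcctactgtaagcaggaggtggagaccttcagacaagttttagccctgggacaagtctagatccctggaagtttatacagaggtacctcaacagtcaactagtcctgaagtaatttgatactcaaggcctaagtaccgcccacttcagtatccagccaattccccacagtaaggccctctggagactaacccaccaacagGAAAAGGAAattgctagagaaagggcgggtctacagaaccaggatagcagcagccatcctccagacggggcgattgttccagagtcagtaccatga
Ifitm3 promoter, chr7:141010695-141010994, minus strand: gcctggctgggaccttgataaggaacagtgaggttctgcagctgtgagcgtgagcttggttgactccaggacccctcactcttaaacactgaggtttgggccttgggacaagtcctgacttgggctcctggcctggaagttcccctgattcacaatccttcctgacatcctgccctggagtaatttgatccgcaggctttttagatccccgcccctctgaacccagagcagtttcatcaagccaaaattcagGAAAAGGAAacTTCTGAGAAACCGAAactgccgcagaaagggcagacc
Ifitm6 promoter, chr7:141016843-141017142, minus strand: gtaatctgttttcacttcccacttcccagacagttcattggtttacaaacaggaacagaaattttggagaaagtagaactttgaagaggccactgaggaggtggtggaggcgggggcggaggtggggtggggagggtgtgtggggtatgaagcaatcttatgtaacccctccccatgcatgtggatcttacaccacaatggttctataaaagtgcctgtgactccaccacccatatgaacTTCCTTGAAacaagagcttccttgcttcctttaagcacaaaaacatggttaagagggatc
The Ifitm3 window held 2 ISRE matches, 3 and 20 bases after the start, and 1 GAS match 14 bases after the start that overlaps the second ISRE match. The Ifitm2 window held 1 ISRE match 46 bases before the start, with the same letters as the first ISRE match of Ifitm3. The Ifitm6 window held 1 GAS match 10 bases before the start, and the Ifitm1 window held 0 matches of either kind. Among all 32851 RefSeq promoter windows, 8.56% held the ISRE letters and 8.3% the GAS letters. A match describes letters only, and the absence of a match says nothing about interferon acting on the gene.

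Nuclei were kept if they had 200 genes or more and an ATAC count from 1000 to 50000, 5905 of 8762 barcodes in library 1 and 7714 of 10199 in library 2. They held 10294527 and 12537328 UMIs and 118239764 and 128699726 ATAC counts, and the median nucleus held 636 and 410 genes, respectively. Transcripts of the ribosomal locus (Gm42418, Gm26917 and AY036118) made up 43.0% of the UMIs of library 1 and 53.2% of those of library 2. Kit, the receptor that the sort selected on, had a UMI in 18.9% of library 1 nuclei and 10.6% of library 2 nuclei, and in 29.4% of HSC-like nuclei, 3.95% of neutrophil progenitor-like (NeuP-like) nuclei and 2.94% of mature B-like nuclei with both libraries pooled. The sort is meant to leave lineage-positive cells out, and whether mature B-like nuclei came from such cells was not tested. Kit shares cannot decide it, at 14.2% of all nuclei and 2.61% of monocyte progenitor-like (cMoP-like) nuclei, libraries pooled. Mature B-like nuclei were also shallow, with a median of 810.5 UMIs against 1562 over all nuclei. They were named from Ms4a1, Bank1, Ighd and Cd55, but B cell progenitor genes such as Rag1 and Il7r were raised too. Joint clustering of RNA and ATAC, made without the Ifitm genes and the peaks near them, gave 13 lineages named from marker genes (with "-like" for this) and 6 clusters that stayed unnamed. Of all barcode sequences, 146 occurred in both libraries, 72 of them among kept nuclei.

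Levels are given as UMIs of the gene per 1000000 UMIs of all genes in the same nuclei (CPM), with exact Poisson 95% intervals. These intervals hold counting error alone and say nothing of how mice or preparations vary. Ifitm1 had 97 UMIs in library 1, or 9.42 CPM (7.64 to 11.5), against 342 UMIs in library 2, or 27.3 CPM (24.5 to 30.3), intervals that lay apart. Ifitm6 had 33 UMIs, or 3.21 CPM (2.21 to 4.50), against 72 UMIs, or 5.74 CPM (4.49 to 7.23). The ratio of library 2 to library 1 was 2.90 (2.30 to 3.67) for Ifitm1 and 1.79 (1.17 to 2.79) for Ifitm6. This contrast was in view when the family was picked, so these intervals show counting error and serve as no test. Ifitm2 had 24.9 CPM in library 1 (256 UMIs) and 29.2 CPM in library 2 (366 UMIs), a ratio of 1.17 (0.998 to 1.38). Ifitm3 had 11.6 CPM (119 UMIs) and 14.0 CPM (176 UMIs), a ratio of 1.21 (0.957 to 1.55). For Ifitm2 and Ifitm3 the interval of the ratio included 1. On a total without the ribosomal-locus transcripts the libraries lay apart, at 43.7 CPM (38.5 to 49.3) and 62.3 CPM (56.1 to 69.0) for Ifitm2. For Ifitm3 they lay at 20.3 CPM (16.8 to 24.3) and 29.97 CPM (25.7 to 34.7), also apart. This change of the total moves the ratio of every other gene by the same factor, so it is no trait of these 2 genes.

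The ratios of single genes have to be read against the shift of all genes. The median over the 10614 genes that reached 20 UMIs in both libraries was taken. This median log2 ratio of library 2 to library 1 was -0.63, so the typical gene was lower in library 2. Relative to that median, Ifitm1 lay at 2.16, Ifitm6 at 1.47, Ifitm3 at 0.91 and Ifitm2 at 0.86 on the log2 scale. Of all genes counted, 4 had a higher ratio than Ifitm1, 40 than Ifitm6, 312 than Ifitm3 and 368 than Ifitm2. The 4 genes above Ifitm1, named after their values were seen, were Dmkn (3.73), Wnt2 (3.55), Gabra2 (3.17) and the neutrophil gene Wfdc21 (2.90). At a threshold of 2-fold, 0.188% of genes were higher in library 2, Ifitm1 among them, and 17.6% were lower, with 0 members. This contrast was in view when the family was picked, so nothing is read from the members' place in it.

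**Figure D1:**
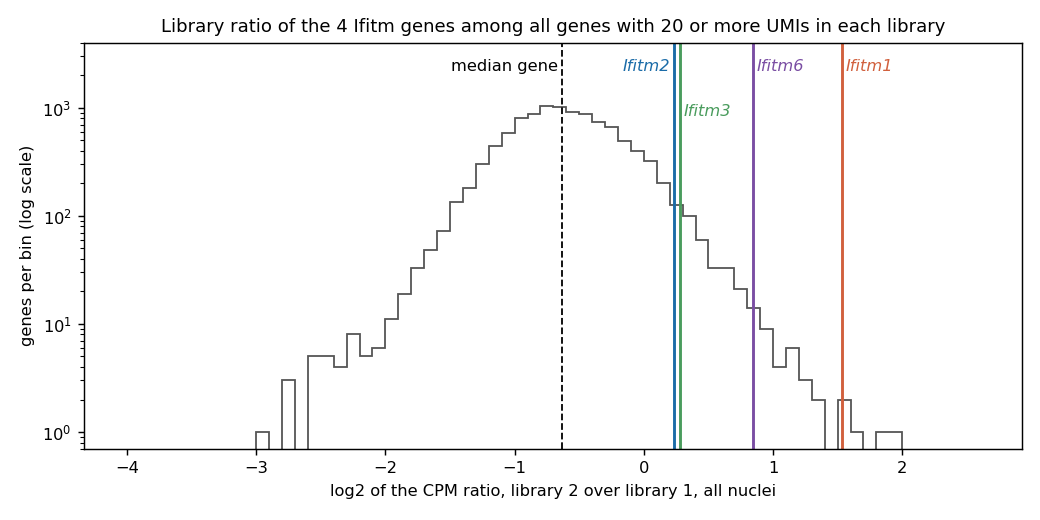
Histogram of the log2 ratio of CPM, library 2 over library 1, for the 10614 genes that reached 20 UMIs in both libraries, with genes per bin of the histogram on a log axis. The dashed line marks the median gene at -0.63, and the coloured lines mark Ifitm2 (0.23), Ifitm3 (0.28), Ifitm6 (0.84) and Ifitm1 (1.53), all to the right of the median.

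The Ifitm1 levels of the libraries lay apart in some lineages and overlapped in others, and whether the ratio itself differs between lineages was not tested. HSC-like nuclei, named from stem cell genes such as Mecom and Hlf, held 20 UMIs in library 1, or 43.4 CPM (26.5 to 67.1), and 22 UMIs in library 2, or 43.9 CPM (27.5 to 66.4), a ratio of 1.01 (0.526 to 1.95). Against the median gene of these nuclei, which was lower in library 2, that ratio lay at 0.67 on the log2 scale, and without the ribosomal-locus transcripts the levels were 70.4 CPM (42.99 to 109) and 92.3 CPM (57.9 to 140). In basophil progenitor-like (BaP-like) nuclei it had 48.7 CPM (10 UMIs) and 25.6 CPM (6 UMIs), and in erythrocyte progenitor-like (EryP-like) nuclei 25.7 CPM (15 UMIs) and 12.6 CPM (6 UMIs). In these 3 lineages the intervals of the libraries overlapped, and the level in library 2 was not above that in library 1 beyond counting error. The intervals of the ratio reach from 0.157 to 1.597 in BaP-like and from 0.156 to 1.34 in EryP-like nuclei, and against the median gene the ratios lay at -0.39 and -0.47 on the log2 scale, respectively.

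In the granulocyte-monocyte progenitor-like (GMP-like) nuclei, named from Elane and Ctsg, library 1 held 1 UMI of Ifitm1 (1.61 CPM, 0.0408 to 8.97) and library 2 held 43 (32.7 CPM, 23.7 to 44.1), a ratio of 20.3 with an interval from 3.46 to 821. NeuP-like nuclei were named from secondary granule genes such as Ltf, Ngp and Camp, and all 7 markers listed for mature neutrophils, such as Retnlg, Mmp8 and Cxcr2, were raised in them as well. In these nuclei library 1 held 0 UMIs (0 to 17.6 CPM) and library 2 held 26 (59.4 CPM, 38.8 to 87.0). With library 1 set to a floor of 3 UMIs the ratio is 4.15. That floor, 14.3 CPM, lies below the upper end of the library 1 interval, so 4.15 is not a lower bound. In both of these lineages the intervals of the libraries lay apart. Lymphoid-primed multipotent-like nuclei, named from Flt3 and Dntt, held 6 UMIs in library 1 (8.03 CPM, 2.95 to 17.5) and 31 in library 2 (37.8 CPM, 25.7 to 53.7). The pro-B-like nuclei, B cell progenitors by Ebf1 and Pax5, held 9 UMIs (5.07 CPM, 2.32 to 9.62) and 18 UMIs (24.3 CPM, 14.4 to 38.3). The ratio was 4.71 (1.94 to 13.8) in the former and 4.78 (2.04 to 12.1) in the latter. Among the unnamed clusters, cluster 0, led by Nrg1, Tnf and F13a1, had 5.11 and 22.2 CPM, cluster 1, led by Nrg1 and Gpr141, had 3.93 and 25.2 CPM, and cluster 4, led by Slc24a3 and Slco3a1, had 7.23 and 29.8 CPM, all with intervals apart. In library 1, the 2 highest levels of Ifitm1 were thus those of BaP-like and HSC-like nuclei, while in library 2 the pDCP-like nuclei held 0 UMIs and the other 18 lineages and clusters lay between 12.6 and 63.2 CPM. With the libraries pooled, Ifitm1 was highest in HSC-like (43.7 CPM) and NeuP-like nuclei (40.2 CPM). Neighbours in the order did not differ beyond counting error, and 9 lineages had an interval wholly below that of HSC-like nuclei. In library 2 alone, only EryP-like nuclei and cluster 6 had an interval wholly below that of HSC-like nuclei. NeuP-like nuclei (59.4 CPM) and cluster 18 (63.2 CPM, 3 UMIs) had higher levels there.

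Counted over lineages with at least 20 UMIs of the gene, the Poisson intervals of Ifitm1 lay apart in 7 of 10, all higher in library 2. Over the 4 members, 8 of 28 pairs of a gene and a lineage lay apart upward and 0 downward. Among all 72576 such pairs in the matrix, 0.632% lay apart upward and 22.3% downward. This contrast was used in picking the family, so these shares are given as background alone. With the lineages weighted to the same makeup in both libraries, an alternative added after the data were seen, the log2 ratio of Ifitm1 was 1.59 against 1.53 as measured, and without NeuP-like nuclei it was 1.44.

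**Figure D2:**
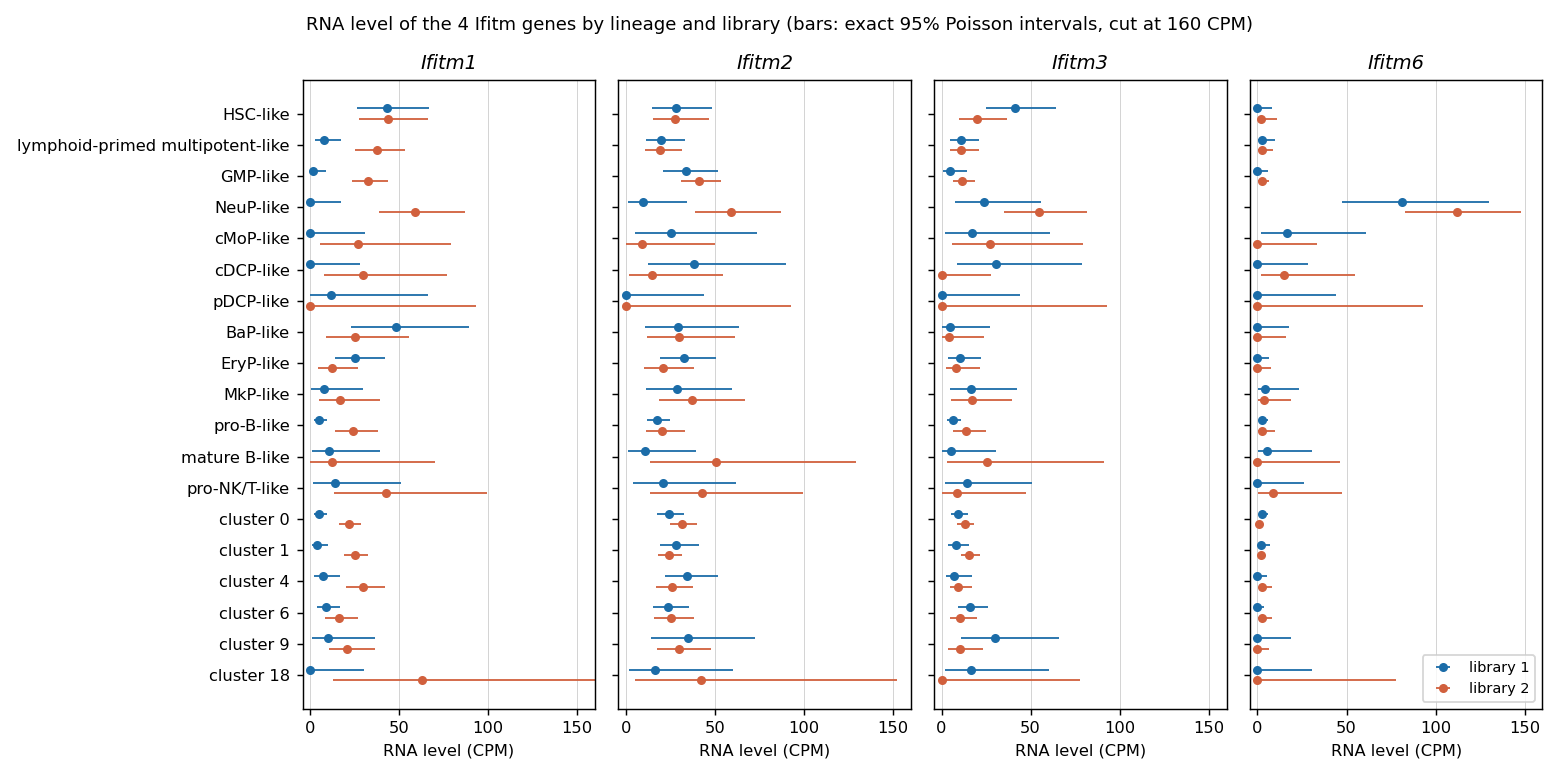
RNA level (CPM, horizontal axis) of Ifitm1, Ifitm2, Ifitm3 and Ifitm6 in 19 lineages and unnamed clusters, with points for library 1 (blue) and library 2 (orange) and bars for exact Poisson 95% intervals, drawn up to 160 CPM. The Ifitm1 points of the libraries coincide in HSC-like nuclei (43.4 and 43.9 CPM) and lie apart in GMP-like and NeuP-like nuclei, and Ifitm6 stands out in NeuP-like nuclei in both libraries.

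Genes of mature neutrophils moved in the same direction as Ifitm1 between the libraries. The 12 listed genes summed to 363 CPM in library 1 and 695 CPM in library 2. Most of each sum came from the calprotectin subunits S100a8 (129 and 257 CPM) and S100a9 (168 and 346 CPM), which were also markers of NeuP-like nuclei. All 9 listed genes that reached 20 UMIs in both libraries had a ratio above 1, as 8.81% of all genes did. Of these 9 genes, 2 were above 2-fold (S100a9, 2.06, and Wfdc21, 2.90). Outside NeuP-like nuclei the list summed to 149 CPM in library 1 and 318 CPM in library 2, and each of the other 18 lineages and clusters held some of its UMIs, at 109 to 480 CPM per library. Ifitm1 did not keep 1 ratio to this list across nuclei. In library 2 it had 0.534 UMIs per 100 list UMIs in NeuP-like nuclei and 8.21 per 100 in all other nuclei. In library 1 these were 0 and 6.47 per 100. The part that free RNA or carried-over neutrophils had in the Ifitm1 difference was not tested.

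**Figure D3:**
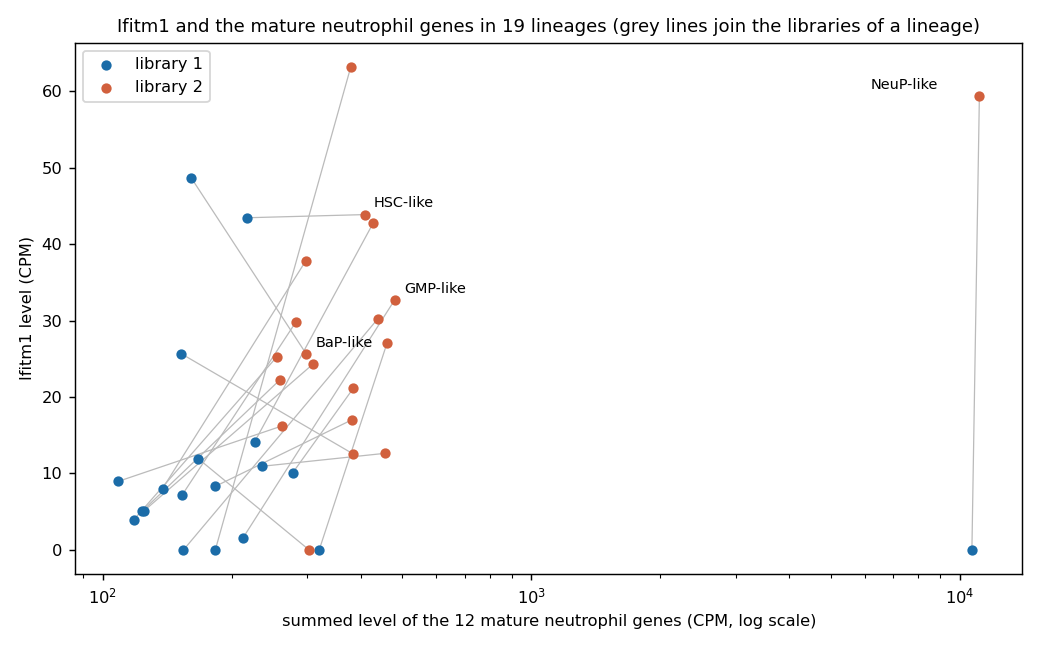
Ifitm1 level (CPM, vertical axis) against the summed level of the 12 mature neutrophil genes (CPM, log axis) in 19 lineages and clusters, with a point for library 1 (blue) and library 2 (orange) and a grey line joining the points of a lineage. The neutrophil list was higher in library 2 in every lineage drawn, and Ifitm1 moved up along most lines, stayed level in HSC-like nuclei on this scale and lay lower in library 2 in BaP-like, EryP-like and pDCP-like nuclei.

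Ifitm6 was concentrated in NeuP-like nuclei. Of its 105 UMIs, 66 came from the 481 NeuP-like nuclei of 13619 in all, of which 17 UMIs (81.1 CPM, 47.2 to 130) lay in library 1 and 49 UMIs (112 CPM, 82.8 to 148) in library 2. The libraries did not lie apart there, at a ratio of 1.38 (0.781 to 2.56), and NeuP-like was the highest lineage in both. With the libraries pooled, NeuP-like nuclei had 102 CPM (78.8 to 130), and cMoP-like nuclei (monocyte progenitors by Ccr2 and Fn1) came next at 8.72 CPM (1.06 to 31.5; 2 UMIs). This was the only pair of neighbours in the order of lineages, for any of the 4 members, whose intervals lay apart. HSC-like nuclei held 1 UMI, and BaP-like and EryP-like nuclei held 0. Per 100 UMIs of the neutrophil list, libraries pooled, Ifitm6 had 0.929 in NeuP-like and 0.729 in all other nuclei. The other 3 members had 0.366 to 0.408 in NeuP-like and 4.97 to 11.1 in all other nuclei. By library the 2 values of Ifitm6 ran in opposite directions. They were 0.760 and 1.07 in library 1 (17 and 16 UMIs) and 1.01 and 0.598 in library 2 (49 and 23 UMIs). Without NeuP-like nuclei Ifitm6 had 16 and 23 UMIs, a ratio of 1.198 with an interval that included 1 (0.606 to 2.43). Its log2 ratio between the libraries was then 0.26 against 0.84 over all nuclei, and at the same lineage makeup it was 0.43.

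Ifitm2 had UMIs in all lineages but the pDCP-like (0 UMIs, which allows up to 29.9 CPM). With the libraries pooled it ranged in the other named lineages from 17.4 CPM in cMoP-like to 43.2 CPM (28.7 to 62.5) in NeuP-like nuclei, with GMP-like nuclei second at 38.7 CPM (30.5 to 48.6). Neighbouring lineages in this order did not differ beyond counting error, and only 2 lineages had an interval wholly below that of NeuP-like nuclei. Between the libraries, NeuP-like was the only lineage with Ifitm2 intervals apart among 11 with at least 20 UMIs, at 9.54 CPM (1.16 to 34.5; 2 UMIs) and 59.4 CPM (38.8 to 87.0; 26 UMIs), a ratio of 6.22 (1.56 to 54.1).

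Ifitm3 was highest in NeuP-like nuclei (44.8 CPM, 29.995 to 64.3) and in HSC-like nuclei (30.1 CPM, 20.2 to 43.3) with the libraries pooled, and 11 of the other lineages had an interval below that of NeuP-like nuclei. In HSC-like nuclei it had 19 UMIs (41.3 CPM, 24.8 to 64.4) in library 1 and 10 UMIs (19.9 CPM, 9.56 to 36.7) in library 2, and in NeuP-like nuclei 5 UMIs (23.8 CPM, 7.74 to 55.7) and 24 UMIs (54.8 CPM, 35.1 to 81.6). These point in opposite directions, but the intervals overlapped in both lineages, as in all 6 lineages with at least 20 UMIs of Ifitm3.

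The family's makeup differed between lineages. Ifitm6 gave 44.3% of the family's 149 UMIs in NeuP-like nuclei, 70.8% of 24 in library 1 and 39.2% of 125 in library 2, and 1.01% of 99 in HSC-like nuclei, and Ifitm1 gave 42.4% in HSC-like and 51.6% of 31 in BaP-like nuclei. In GMP-like nuclei Ifitm1 gave 4% of 25 family UMIs in library 1 and 37.4% of 115 in library 2. The 4 members together had 114 CPM (73.3 to 170) in library 1 and 285 CPM (238 to 340) in library 2 in NeuP-like nuclei, and 113 and 93.7 CPM in HSC-like nuclei.

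NeuP-like nuclei had the highest share of ribosomal-locus UMIs among the named lineages, 58.5% with the libraries pooled against 45.7% in HSC-like nuclei. Left out of the totals, these transcripts put Ifitm1 highest in NeuP-like (96.7 CPM, 63.2 to 142) rather than HSC-like nuclei (80.4 CPM, 57.9 to 109), with overlapping intervals on either scale. With the libraries pooled, NeuP-like nuclei stayed the highest lineage for Ifitm2, Ifitm3 and Ifitm6. In library 1 alone this did not hold for Ifitm2 and Ifitm3. On these totals NeuP-like nuclei had 20.5 CPM of Ifitm2 there (2 UMIs), against 59.0 CPM in GMP-like nuclei. For Ifitm3 they had 51.4 CPM (5 UMIs), against 66.9 CPM in HSC-like nuclei. Levels in NeuP-like nuclei also rest on shallow nuclei, with a median of 1136 UMIs and 270 genes.

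The other family genes in the matrix were near the limit of detection. Ifitm7 had 21 and 22 UMIs in library 1 and library 2, Ifitm10 had 11 and 25, and Ifitm5, the bone-specific member, had 1 and 1. Their intervals overlapped between the libraries.

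Genes whose pattern was most like that of a member were sought by Pearson's r of log2(CPM + 10) over the 13 lineages and clusters that held 100 nuclei of both libraries or more, in a search of 6907 genes. Such correlations share libraries and depth and are descriptions. The genes nearest to Ifitm6 were all known neutrophil or myeloid genes, Lcn2 (0.98), Mmp8 (0.98), Retnlg (0.98), Camp (0.97) and Lyz2 (0.97), each highest in NeuP-like nuclei. Ifitm6 had 66 UMIs in NeuP-like nuclei and at most 6 in any other of the 13, so these values rest mainly on that 1 lineage. The 13 leave out cMoP-like and cDCP-like nuclei. Nearest to Ifitm1 were Gm16201 (0.86), the clock gene Per2 (0.85), Mindy1 (0.84), Gyg (0.79) and Fxyd5 (0.78). Nearest to Ifitm2 were Flot2 (0.84), Dock5 (0.82), the glycogen phosphorylase gene Pygl (0.82), Fgl2 (0.80) and Gda (0.80), and nearest to Ifitm3 were Cpne3 (0.89), Dgkh (0.88), Prdx5 (0.85), Aldh2 (0.84) and Actn1 (0.84). Among the members themselves, r lay between 0.40 and 0.53 except for Ifitm3 and Ifitm6 (0.73).

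The median of the other interferon pathway genes lay near the typical gene. Of 50 listed genes, 48 were rows of the matrix and 40 reached 20 UMIs in both libraries, and of these 0 were 2-fold higher in library 2, 8 were 2-fold lower, 0 had a ratio above 1 and 14 lay above the median gene. Of all genes, 17.6% were 2-fold lower and 8.81% had a ratio above 1. Of the 8 list genes below that count, Ifit1 (13 and 18 UMIs) and Ifi204 (16 and 29 UMIs), named after their values were seen, had ratios above 1, at 1.14 and 1.49. The median log2 ratio of the 40 list genes that reached 20 UMIs in both libraries was -0.74, or -0.11 relative to the median gene at -0.63. Several interferon-induced genes of the list held few UMIs in library 1 and library 2, such as Isg15 (25 and 20), Rsad2 (32 and 30) and Ifit3 (2 and 2). Mx1 and Mx2 were not rows of the matrix. An interferon response in such genes could hardly be seen at these counts. The receptor subunits had ratios of 0.596 (Ifnar1), 0.640 (Ifnar2), 0.930 (Ifngr1) and 0.599 (Ifngr2). The kinase Jak2, which acts at the interferon gamma receptor, had a ratio of 0.473 with 57.02 CPM in library 1 and 27.0 CPM in library 2. Among the interferon-induced genes with at least 100 UMIs over both libraries, Parp14 (0.476), an ADP-ribosyltransferase, and Ifi27l2a (0.274) were lower by more than 2-fold. Depth, the ribosomal share and the genes per nucleus also differ between the libraries, and their part in these ratios was not tested.

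Chromatin accessibility at the locus was compared as ATAC counts per 1000000 counts in all peaks (ATAC CPM), with intervals computed on pairs of counts because a fragment can give 2. The 24 peaks together had 221 ATAC CPM (217 to 225) in library 1 and 240 ATAC CPM (236 to 244) in library 2, a log2 ratio of 0.12 against 0.07 for the median peak. Within 20 kb of each gene the log2 ratio was 0.19 for Ifitm1 (11 peaks), 0.12 for Ifitm2 (10 peaks), 0.11 for Ifitm3 (11 peaks) and 0.13 for Ifitm6 (10 peaks), with neighbouring genes sharing peaks. Lineage by lineage the intervals of the locus overlapped between the libraries in 18 of 19, and only in lymphoid-primed multipotent-like nuclei did the intervals lie apart, at 165 and 197 ATAC CPM. No such share was computed over other loci or all peaks, so nothing is read from this count. In GMP-like nuclei, where Ifitm1 RNA had its ratio of 20.3 (3.46 to 821, with 1 UMI in library 1), the locus had 230 and 235 ATAC CPM. In NeuP-like nuclei it had 374 and 357 ATAC CPM. The locus sum also holds peaks far from Ifitm1, such as that at the start of the neighbouring gene Pgghg. The peak at the Ifitm1 start had 6.30 (4.11 to 9.23) and 7.64 (5.82 to 9.86) ATAC CPM in GMP-like nuclei.

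Peak by peak, 8 of 24 were at least 1.2-fold higher in library 2 and 0 were lower by as much, against 24.2% and 10.9% of all peaks, and 21 had a ratio above 1, as 60.6% of all peaks did. Peaks are numbered along the chromosome. The 8 were peaks 1, 8, 9, 10, 11, 15, 19 and 23, singled out after their values were seen. Peak 8 (chr7:140967561-140968466) holds an Ifitm1 start and had 5.65 (5.06 to 6.29) and 7.29 (6.64 to 7.98) ATAC CPM, a ratio of 1.29. The next 3 peaks downstream of Ifitm1 had ratios of 1.28 (peak 9), 1.28 (peak 10) and 1.30 (peak 11). The peaks at the starts of the other members had ratios of 1.14 for peak 5 (chr7:140955556-140956428, Ifitm2, which also holds a start of Gm45717), 0.997 for peak 21 (chr7:141010414-141011170, Ifitm3) and 1.06 for peak 22 (chr7:141016602-141017476, Ifitm6). Peak 8 holds 1 GAS match, TTCTGAGAA, 117 bases from its centre and just past the downstream end of the Ifitm1 promoter window shown above. It has the same letters as the GAS match of the Ifitm3 window. The absence of a GAS match in the Ifitm1 window thus depends on where that window ends. The window set by the rule ends inside a run of peaks, with peaks 13 and 14 just inside at 19.1 and 19.5 kb from a member and ratios of 0.951 and 1.02, and the nearest peaks outside at 20.5 and 32.8 kb with ratios of 1.03 and 1.17.

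**Figure D4:**
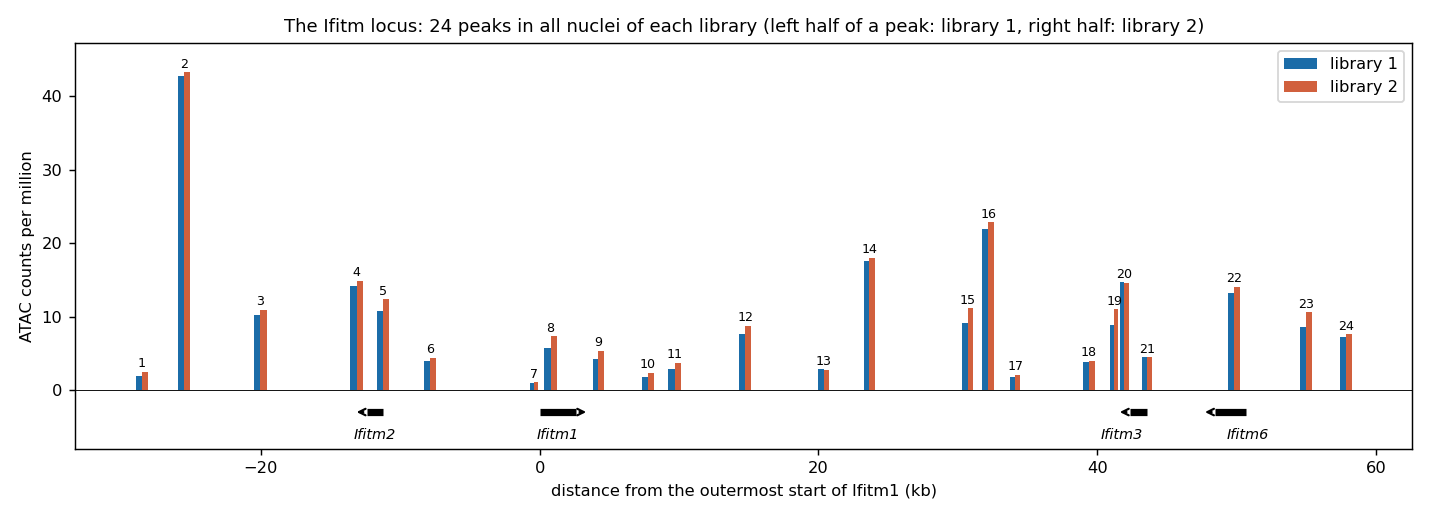
Map of the Ifitm locus with ATAC CPM (vertical axis) of the 24 numbered peaks in library 1 (blue) and library 2 (orange) against distance from the outermost Ifitm1 start in kb, and arrows for the 4 genes. Peak 2, at the start of the neighbouring gene Pgghg, is the highest at 42.7 and 43.3 ATAC CPM, and the bars of peaks 8 to 11 around Ifitm1 and of peak 1 at the left edge have ratios of library 2 to library 1 from 1.28 to 1.30.

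Across lineages the locus varied more than between libraries. With the libraries pooled it was highest in cDCP-like nuclei (dendritic progenitors by Cd74; 401 ATAC CPM, 368 to 436), NeuP-like nuclei (364, 342 to 386) and cMoP-like nuclei (335, 303 to 369), and lowest in pro-NK/T-like (148, 129 to 170) and pro-B-like nuclei (153, 146 to 159). For Ifitm3 and Ifitm6 the peaks within 20 kb were highest in NeuP-like nuclei, at 193 and 185 ATAC CPM, and for Ifitm1 and Ifitm2 in cDCP-like nuclei, at 133 and 201 ATAC CPM. Of the 24 peaks, 7 had a top lineage at 3 times the median lineage or more, over the 18 lineages and clusters of at least 100 nuclei. Among all peaks with at least 250 counts, which all 24 had, 34.5% did so, and the locus did not exceed that share. The top lineage was NeuP-like for 6 peaks, cDCP-like for 5 and cMoP-like for 3, 14 of 24 together, where 7.15%, 10.7% and 8.08% of all peaks had these as top lineages. These are pooled values, and the top lineage was the same in both libraries for 7 of these 14 peaks and for 8 of all 24. The same share was not computed over all peaks, so nothing is read from these counts. The clusters were built without the 24 peaks, but the rest of the peaks and the other genes shaped them and may have shaped this order. Neighbouring peaks were also not independent of each other. The lineages in the 14 of 24 were put together after their values were seen, so that count is a description.

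**Figure D5:**
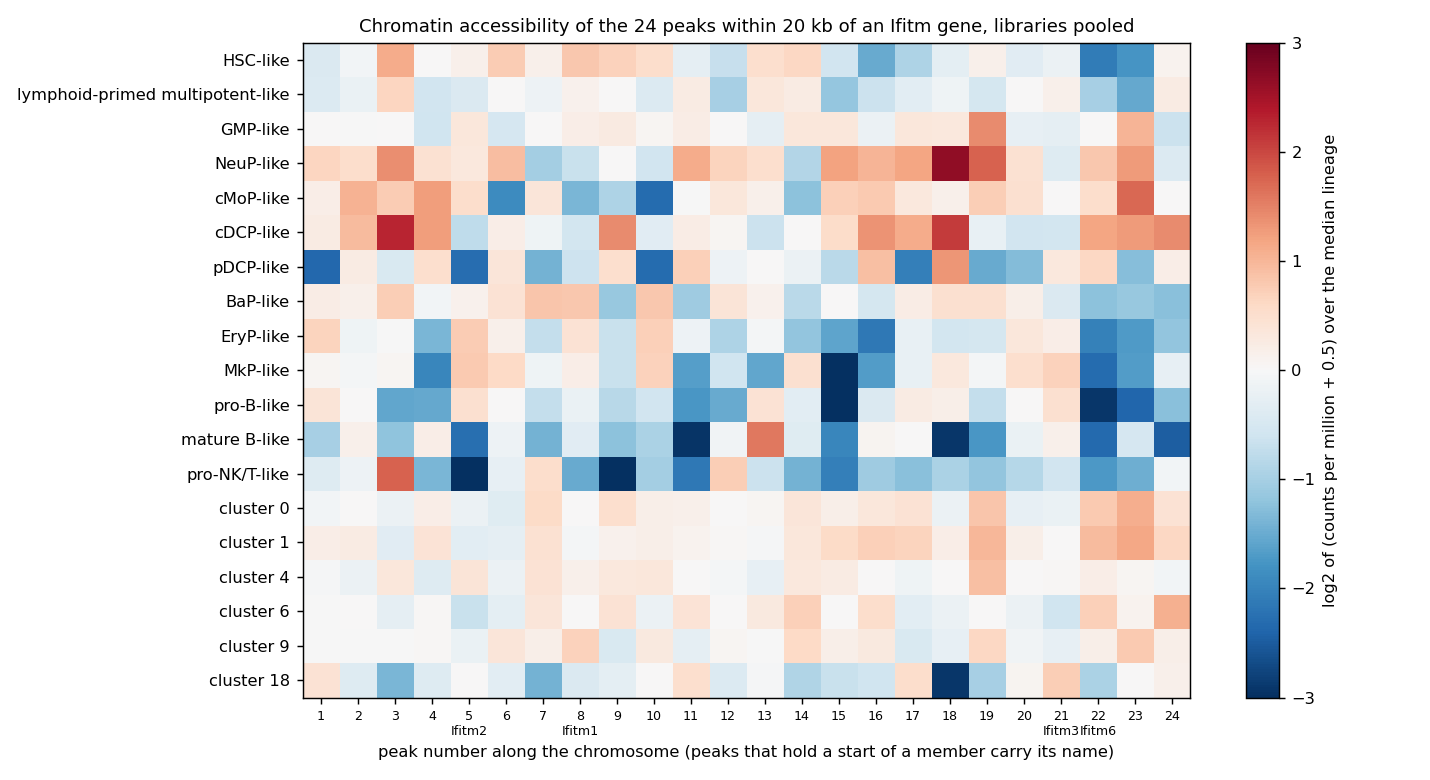
Heatmap of chromatin accessibility of the 24 peaks (columns, in order along the chromosome, with the member named under a peak that holds its start) in 19 lineages and clusters (rows), libraries pooled, coloured by the log2 of ATAC CPM plus 0.5 over the median lineage, from -3 to 3. Peak 18 is darkest red in NeuP-like nuclei and peak 3 in cDCP-like nuclei, and the columns right of peak 14 are mostly red in the myeloid rows and blue in the lymphoid and megakaryocyte rows.

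Peak 18 (chr7:141006185-141007083), intergenic and centred 4136 bases downstream of the Ifitm3 start, had the highest ratio of its top lineage to the median lineage, 7.47. It had 23.3 ATAC CPM (15.3 to 34.0) in library 1 and 23.5 (17.01 to 31.5) in library 2 in NeuP-like nuclei, and 13.5 and 17.9 in cDCP-like nuclei. In GMP-like nuclei it had 3.63 and 4.53 ATAC CPM and in HSC-like nuclei 3.51 and 1.62. The libraries were thus level in NeuP-like nuclei. That lineage lay above GMP-like and HSC-like nuclei in each library with intervals apart, and overlapped cDCP-like nuclei in both libraries. The peak was picked for the ratio of its top to the median lineage, so this order follows in part from the pick. Peak 3 (chr7:140946746-140947639), in an exon of Pgghg, had the second highest ratio, 4.97, with 53.9 and 45.5 ATAC CPM in cDCP-like, 38.9 and 27.3 in pro-NK/T-like, 28.1 and 25.6 in NeuP-like and 20.7 and 22.8 in HSC-like nuclei, and 2.38 and 4.60 in pro-B-like nuclei. The central 300 bases of these 2 peaks are shown, plus strand, GRCm38.p6, because they lead in the ratio of the top to the median lineage. By the ratio of the top to the lowest lineage, peaks 15 (34.3), 23 (25.9), 22 (24.3) and 24 (23.6) exceeded peak 3 (16.7), and peak 18 had no such ratio because its lowest lineage held 0 counts. Capitals in peak 3 mark the letters AGATAA of GATA factors and the letters TGANTCA of AP-1. Capitals in peak 18 mark the letters GAGGAAGT of PU.1 and TGTGGT of RUNX factors, and the GAS letters. Both strands were searched, and these matches do not overlap.
Peak 3 centre, chr7:140947043-140947342: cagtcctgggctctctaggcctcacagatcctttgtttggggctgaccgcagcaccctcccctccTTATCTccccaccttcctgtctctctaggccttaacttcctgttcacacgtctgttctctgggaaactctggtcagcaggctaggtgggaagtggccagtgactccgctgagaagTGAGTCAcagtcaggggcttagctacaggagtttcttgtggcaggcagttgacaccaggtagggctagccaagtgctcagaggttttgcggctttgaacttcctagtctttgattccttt
Peak 18 centre, chr7:141006484-141006783: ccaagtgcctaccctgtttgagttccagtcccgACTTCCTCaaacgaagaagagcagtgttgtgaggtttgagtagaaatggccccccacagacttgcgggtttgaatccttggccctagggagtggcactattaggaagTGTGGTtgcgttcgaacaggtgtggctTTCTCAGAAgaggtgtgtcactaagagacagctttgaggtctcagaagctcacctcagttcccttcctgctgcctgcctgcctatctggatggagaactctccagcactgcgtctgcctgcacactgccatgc
In the central 300 bases of 174282 peaks, GATA letters occurred in 13.3%, AP-1 in 11.4%, PU.1 in 9.8%, RUNX in 29.7% and GAS in 8.5%. The matches describe letters and do not show that a factor binds.

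The peaks at the members' own starts followed another order. Peak 22, at the Ifitm6 start, had 22.4 and 20.5 ATAC CPM in NeuP-like, 24.1 and 31.3 in cDCP-like and 16.1 and 9.65 in GMP-like nuclei. It had 21.3 and 20.5 in cluster 0, 27.1 and 21.6 in cluster 1 and 23.0 and 16.2 in cluster 6. Its levels were lower in HSC-like nuclei, at 2.73 and 2.02, and in pro-B-like nuclei, at 1.02 and 1.44. Ifitm6 RNA had 66 UMIs in NeuP-like, 2 in cDCP-like and 3 in GMP-like nuclei, 6 each in clusters 0 and 1 and 2 in cluster 6. Peak 8, at the Ifitm1 start, had 8.38 (5.22 to 12.7) and 14.1 (9.85 to 19.7) ATAC CPM in HSC-like nuclei and 10.8 and 11.3 in BaP-like nuclei. These were level at the top with the libraries pooled (11.2 and 11.04), and the highest lineage was not the same in both libraries. It had 4.83 and 2.97 in NeuP-like nuclei, where Ifitm1 RNA was found in library 2 only. Peak 5, at the Ifitm2 start, had 17.8 and 21.6 ATAC CPM in MkP-like and 15.0 and 25.5 in EryP-like nuclei, the 2 highest with the libraries pooled and with overlapping intervals, and had 0 counts in pro-NK/T-like nuclei, which allows up to 2.67 ATAC CPM. Peak 21, at the Ifitm3 start, lay between 2.82 and 7.91 ATAC CPM in all lineages and clusters with the libraries pooled, and between 0.873 and 8.74 in single libraries.

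RNA and accessibility were set side by side over the same 13 lineages and clusters. The Pearson correlation of log2 levels was 0.94 between Ifitm6 RNA and peak 18 and 0.87 between Ifitm1 RNA and peak 3, the highest for these genes among the 24 peaks. Over all 18 lineages and clusters of at least 100 nuclei, an alternative added after the data were seen, these were 0.57 and 0.55. The value of 0.94 rests mainly on NeuP-like nuclei, with 66 UMIs of Ifitm6 and peak 18 at 23.4 ATAC CPM, libraries pooled. Any other of the 13 had at most 6 UMIs and 4.76 ATAC CPM. Peak 18 was also picked for its ratio of the top to the median lineage. The 13 leave out cDCP-like and pro-NK/T-like nuclei, where peak 3 was highest (49.8 and 34.4 ATAC CPM, libraries pooled) and Ifitm1 had 15.3 and 27.1 CPM, and cDCP-like nuclei held 2 UMIs of Ifitm6 with peak 18 at 15.6 ATAC CPM. For the peaks at the members' own starts it was 0.28 for Ifitm6 (peak 22), 0.26 for Ifitm1 (peak 8), 0.33 for Ifitm2 (peak 5; 0.017 over the 18) and -0.16 for Ifitm3 (peak 21). These values were read from all pairs of 4 genes and 24 peaks, carry no test, and rest on points that share libraries and depth.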

How the data were processed

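RNA and ATAC were read from nuclei of sorted Lin-cKit+ bone marrow cells, in 1 Ctrl and 1 Lig sample. The authors deposited 1 matrix of raw counts, UMIs for genes and ATAC counts for peaks, made with Cell Ranger ARC 2.0.0 on GRCm38 (mm10) and without normalization. The submitters' processing notes also name Seurat 4.0.3 and Signac 1.3.0. Of the nonzero ATAC entries, 82.7% were even, so ATAC intervals were computed on halved counts. Total depth and its precision are given with the values.

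Nuclei were filtered on genes and ATAC counts as stated above, with the study's fragment limits applied to counts in peaks. RNA was log-normalised (2000 variable genes, 30 principal components), ATAC was reduced by latent semantic indexing (components 2 to 30), and both were corrected between the libraries and clustered jointly at resolution 0.8 (Seurat 5.3.0, R 4.3.3), without 7 Ifitm genes and 24 peaks. A lineage name required at least 3 raised markers with at least 10 UMIs, a log2 ratio of at least 1 and a marker among the 10 leading genes. Scrublet (scanpy 1.11.5) called 3 nuclei doublets (0.0220%), which is too few to be credible, so no doublets were removed and removal of the top 8% of scores was an alternative. Counts were summed per lineage and library, and exact Poisson intervals and exact conditional ratio intervals were computed (SciPy 1.17.1). Only the ratio intervals of RNA over all nuclei were tried on simulated data. Those data were drawn from the Poisson model that the intervals assume, so the trial checks the computation alone. No test between groups was possible.

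Named were all 4 members, the other Ifitm genes, the 5 genes most like each member, the peaks at starts or with the highest ratios over lineages, and the listed interferon genes with at least 100 UMIs and a 2-fold ratio, with the receptors. A result on signalling factors of the list is not reported here. Peaks with the highest counts per kb are shown in the map. The members, gene lists and motifs were chosen with earlier results of these data known. Promoter windows, peak sequences and annotation were taken from RefSeq (GRCm38.p6) and GENCODE, which held 99.6% of the gene IDs. Alternatives covered the filters, doublets, scaling, clustering and peak window.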

Additional observations from a re-analysis of the deposited data

How the results depend on the processing

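The direction of all 4 RNA ratios between the libraries was the same under every alternative computed. Of 32 alternatives, 28 differed from the reported value by less than the counting error. The changes of scaling moved every gene kept upward by the same amount, so they could not reverse these ratios. The other alternatives reuse the same libraries, so this agreement is no independent support. Without NeuP-like nuclei the Ifitm6 ratio was 1.198, with a counting interval from 0.606 to 2.43 that included 1. Scaling by the median of gene ratios moved the log2 ratio of Ifitm1 to 2.16, of Ifitm2 to 0.86 and of Ifitm3 to 0.91, because the median gene was lower in library 2. Leaving out the ribosomal-locus genes gave 0.51 for Ifitm2 and 0.56 for Ifitm3, with the intervals of the libraries apart for both. Without the ribosomal-locus genes and with the libraries pooled, the highest level of Ifitm1 was 96.7 CPM, then in NeuP-like and no longer in HSC-like nuclei. The highest levels of the others were 104 CPM for Ifitm2, 108 CPM for Ifitm3 and 246 CPM for Ifitm6. At resolution 0.4 the highest lineage of Ifitm1 was also NeuP-like, at 40.2 CPM.

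The ATAC ratios within 20 kb were small and less stable. With peaks within 1 kb of the start only, the log2 ratio of Ifitm3 reversed to -0.0043, while those of Ifitm1 and Ifitm2 were 0.35 and 0.19. With a window of 10 kb that of Ifitm1 was 0.32. Median-of-ratios scaling gave 0.12, 0.051, 0.043 and 0.058 for Ifitm1, Ifitm2, Ifitm3 and Ifitm6, and a minimum of 500 genes gave 0.053 for Ifitm3 and 0.072 for Ifitm6. In the 10 kb window, which holds fewer peaks, the highest lineage was HSC-like for Ifitm1 (33.0 ATAC CPM), cDCP-like for Ifitm2 (99.5), and NeuP-like for Ifitm3 (95.7) and Ifitm6 (114).

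No paired analysis was possible because each group held 1 sample and the matrix columns carry no sample or replicate number. Depth limits the lineage values: most rest on fewer than 50 UMIs of a member, so even differences above 2-fold, such as that of Ifitm3 in NeuP-like nuclei (2.30, 0.860 to 7.71), stayed within counting error. The intervals cover counting error and not mice, sorts or preparations. Scrublet did not work, so doublets could not be judged. The libraries differ in depth, ribosomal share, genes per nucleus and neutrophil transcripts. Leaving the ribosomal-locus genes out changes the totals alone, so it raised the log2 RNA ratio of every other gene by the same amount. For the members the ratio rose from 1.53 to 1.82 for Ifitm1, 0.23 to 0.51 for Ifitm2, 0.28 to 0.56 for Ifitm3 and 0.84 to 1.12 for Ifitm6. The shift is thus no trait of the members. The part of depth, genes per nucleus and neutrophil transcripts in the ratios was not tested.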
